A study of Mus musculus with 6 samples.

Results

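Cholesterol synthesis and transport were followed through 30 named genes on arrays of RNA described as motor neuron RNA, taken from mouse brainstem. Markers of other cell types were also read on these arrays, as given below. They were chosen by name, as every probe set that the platform annotation assigns to exactly 1 of these gene symbols. That gave 59 probe sets of 27 genes, out of 45037 probe sets on the array, and Acat2, Nr1h2 and Soat1 were not analysed here because the annotation used gave them no probe set. Of the 17 synthesis enzymes on the list 16 had a probe set, as did 3 of 3 regulators of synthesis, 4 of 4 genes of uptake and intracellular transport, 2 of 3 efflux genes and 2 of 3 genes of cholesterol storage and oxysterols. The samples were 3 RNA samples from SOD1 mice and 3 from wild type (WT) mice, 1 array each, all amplified in the same way with a T7-based method. Sod1 encodes a superoxide dismutase whose mutant forms cause familial amyotrophic lateral sclerosis. The sources used here do not give the allele, strain, age or sex of the mice, nor how motor neurons were collected. The labels do not state whether replicates were different animals, so the p-values reflect the spread of these samples alone, which may be technical.

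Brain cholesterol is made locally, because lipoproteins of the blood do not cross the blood-brain barrier. Synthesis runs from acetyl-CoA through mevalonate and squalene to lanosterol and then to cholesterol, and the transcription factor SREBP-2, encoded by Srebf2, switches on most enzymes of this path when sterols in the endoplasmic reticulum are low. Glia are known to release cholesterol on lipoprotein particles through ABC transporters, neurons take it up by receptors such as LRP1, and neurons remove surplus by turning it into 24-hydroxycholesterol with CYP46A1. Liver X receptors sense oxysterols and are known to switch on Abca1 and Abcg1.

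Promoter sequences are shown first, because SREBP-2 is known to act on most synthesis genes through their promoters. RefSeq promoter windows (GRCm38.p6, 250 bases before to 50 after a gene's start) were found for 24 of the 30 genes, Acat2 and Soat1 included. The synthesis genes Fdps, Fdft1 and Sqle had none. Some genes had several windows, and a match in any of them counted. The letters CCAAT, the box bound by NF-Y, a factor that acts together with SREBP-2 at many of these genes, were searched on both strands and lay in the window of 13 of 14 synthesis genes (not Acat2) and in 41.1% of all genes with a window, or 42.4% of the genes measured on these arrays. Among the 4 uptake, transport and efflux genes with a window, 1 (Npc2) held it. Dhcr7 and Pmvk had several windows and held CCAAT in only 1 of them. The letters TCACNCCAC, a form of the sterol response element bound by SREBP, were found only in Hmgcs1 among the 24, against 1.44% of all genes. The letters CACGTG, an E-box, were found in 6 of the 24, Abca1, Dhcr7, Hsd17b7, Insig1, Sc5d and Scap, against 8.09% of all genes and 11.4% of the measured ones. GGGCGG, a GC box, was in 21 of the 24, against 38.2% of all genes and 66.9% of the measured ones. A match describes these letters and is not a binding site. The 150 bases before the start are given 5′ to 3′ for 3 synthesis genes, for the feedback gene Insig1 and, for comparison, for the efflux gene Abca1, with CCAAT (or ATTGG on the other strand), TCACNCCAC and CACGTG in capitals.
Idi1, chr13:8885456-8885605, plus strand: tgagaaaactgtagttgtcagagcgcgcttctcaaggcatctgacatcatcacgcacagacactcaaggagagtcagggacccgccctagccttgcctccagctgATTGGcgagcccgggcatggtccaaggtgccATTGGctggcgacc
Hmgcs1, chr13:119690201-119690350, plus strand: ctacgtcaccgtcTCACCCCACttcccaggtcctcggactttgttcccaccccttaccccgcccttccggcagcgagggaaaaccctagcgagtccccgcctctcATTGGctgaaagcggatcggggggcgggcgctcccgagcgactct
Mvk, chr5:114444119-114444268, plus strand: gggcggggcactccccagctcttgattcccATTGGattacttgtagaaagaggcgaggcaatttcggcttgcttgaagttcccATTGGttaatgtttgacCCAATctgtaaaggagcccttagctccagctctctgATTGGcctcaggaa
Insig1, chr5:28071262-28071411, plus strand: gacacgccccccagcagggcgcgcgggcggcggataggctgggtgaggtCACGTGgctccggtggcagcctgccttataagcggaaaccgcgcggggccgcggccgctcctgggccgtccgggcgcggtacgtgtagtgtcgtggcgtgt
Abca1, chr4:53159896-53160045, minus strand: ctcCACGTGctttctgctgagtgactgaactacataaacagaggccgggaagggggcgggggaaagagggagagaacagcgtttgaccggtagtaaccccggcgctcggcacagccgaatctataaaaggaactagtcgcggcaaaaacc
The Mvk window carries 4 of these boxes within the bases shown, Idi1 carries 2, and the Hmgcs1 sterol response element lies at position -137 counted from the start. Abca1 shows no CCAAT here and has a single E-box. Insig1 also shows no CCAAT in these bases, but its window holds 1 farther out, at position -216.

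The arrays as a whole frame these genes. The lowest median signal of an array was 267 and the highest 315. Microglial markers stood far apart, with summed signals of 16.87 to 17.89 in SOD1 and 13.32 to 15.49 in WT (log2), and 15 of 15 markers had positive log2 changes. Xist, which is transcribed from an inactive X chromosome, read 14.71, 14.63 and 7.33 on SOD1 replicates 1, 2 and 3 and 7.27 to 7.75 on the WT arrays, so SOD1 replicates 1 and 2 stand apart, and values with Xist as a covariate are given where they differ from the main value by over 1.5 times or in sign, and for some others. That covariate leaves nearly the difference between SOD1 replicate 3 and WT, and it moved 16 of the 27 brightest probe sets of the members that far. Of the 12 motor neuron markers listed 11 had a probe set, and Mnx1 was below the filter. On their brightest probe sets the others lay above the background level, with 6 of 10 changes negative and 4 genes (Slc18a3, Ache, Nefm and Nefh) on which all SOD1 arrays lay below WT, at -0.995, -1.06, -0.33 and -0.20. Isl1 was at 0.23, with all SOD1 arrays above WT, and Nefl at 0.0070 with overlap. Uts2, at 2.02, had the largest change of these markers in either direction, and Slc5a7 was at 0.72, both with overlap. Chat and Prph were at -0.40 and -0.16, also with overlap. Of all genes tested, 11.2% had all SOD1 arrays below WT and 10.7% had them above. The highest Sod1 probe set gave 16.79, 16.69 and 16.84 in SOD1 and 16.33, 16.51 and 16.68 in WT. Its other tested probe sets were at 0.06, -0.38 and -0.81, all with overlap. A mouse probe set need not read a human transgene.

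Of the 59 member probe sets, 51 passed a filter on low signal and were tested, and they cover all 27 genes. None passed the test. By limma 0 were higher and 0 were lower in SOD1 at an adjusted p of 0.05, where 0.0629% and 0.122% of all 27022 tested probe sets were called higher and lower, 17 and 33 in number. With median centring in place of quantile normalisation, 19 were called higher and 22 lower. The smallest adjusted p among the members was 0.108, for Npc2. At an unadjusted p under 0.05 there were 13 of 51 member probe sets, or 25.5%, against 14.7% of all tested. Without a variance trend it was 6 of 51, or 11.8%, against 12% of all tested. In the main fit 9 of the 51 were higher in SOD1, against 7.1% of all tested, and 4 of the 51 lower, against 7.56%. Idi1, Npc2 and Abcg1 count with more than 1 probe set. By group, 4 of 33 synthesis probe sets were under 0.05, or 12.1%, all higher. For uptake, transport and efflux it was 7 of 12, or 58.3%, with 4 higher and 3 lower. On the brightest probe sets it was 2 of 16 and 3 of 6 genes, or 12.5% and 50%, against 16.5% of all genes. Values below are log2 of the quantile normalised signal plus 16, a scale that understates changes of dim probe sets. Changes are SOD1 minus WT with 3 arrays per group. The ± is the SE of that difference from limma. Its variance draws on all tested probe sets, so it is not the plain spread of a probe set's own arrays. In RNA from a bulk sample, fewer cells of a type and less RNA per cell cannot be told apart.

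On the brightest probe set of each gene, more synthesis genes had positive than negative changes, while those of uptake, transport and efflux were evenly divided. On these, the log2 change was positive for 12 of 16 synthesis genes and for 3 of 6 genes of uptake, transport and efflux, where it was positive for 49% of all 13123 genes tested. Over all tested probe sets it was positive for 21 of 33 of synthesis and 7 of 12 of uptake, transport and efflux, against 49.5% of all. Over the alternatives the synthesis count ran from 9 of 15 with no shared probe sets to 13 of 16 with Xist as a covariate. The median change was 0.19 for synthesis and 0.04 for uptake, transport and efflux, with -0.01 over all genes. With Xist as a covariate the median was 0.13 for synthesis and -0.33 for uptake, transport and efflux, and with the mean of each gene's probe sets it was 0.18 and 0.31. Averaged over the 16 genes, the synthesis level was 13.47, 13.16 and 13.31 on the SOD1 arrays and 13.28, 12.98 and 13.35 on the WT arrays, so the groups overlapped. The average of the 6 uptake, transport and efflux genes was 13.02, 12.86 and 12.69 in SOD1 and 12.81, 12.75 and 12.67 in WT, which also overlapped. The difference between the averages, synthesis minus the others, was 0.45, 0.30 and 0.62 in SOD1 and 0.47, 0.23 and 0.68 in WT. The WT arrays thus spanned the SOD1 arrays on that balance.

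**Figure D1:**
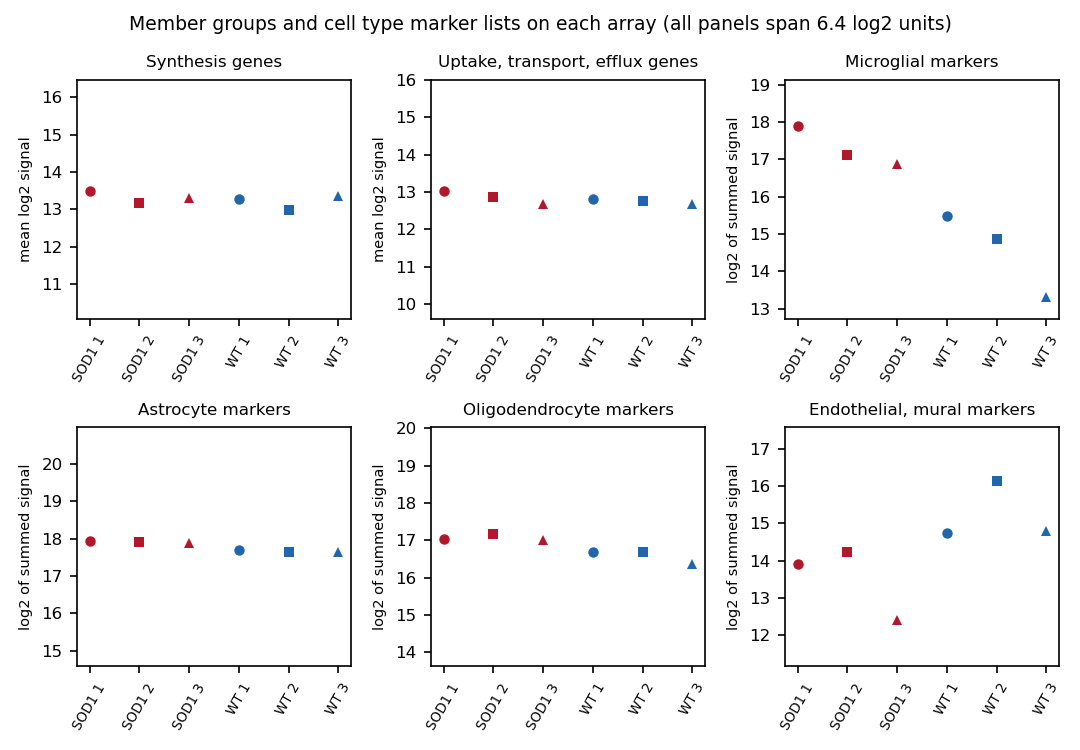
Mean log2 signal of the 16 synthesis genes and of the 6 uptake, transport and efflux genes, and the log2 summed signal of 4 marker lists, on each of the 6 arrays (red SOD1, blue WT, marker shape for the replicate number). Both member groups overlap between SOD1 and WT, while the microglial sum is 16.87 to 17.89 in SOD1 and 13.32 to 15.49 in WT.

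In the mevalonate steps, 5 of 6 genes had positive changes, with a median of 0.21. Idi1, the isomerase that makes dimethylallyl diphosphate, had the largest positive change of the synthesis genes on their brightest probe sets. Its brighter probe set (1451122_at) read 14.41, 14.50 and 14.29 in SOD1 and 13.99, 13.54 and 13.99 in WT. All 3 SOD1 arrays lay above all 3 WT arrays. The change was 0.56 ± 0.17, or 1.47-fold, and did not pass (adjusted p = 0.187). Its second probe set (1423804_a_at) read 13.13, 13.08 and 12.94 in SOD1 and 12.93, 12.29 and 12.29 in WT, again without overlap, and gave 0.55 ± 0.23 (adjusted p = 0.313). With Xist as a covariate the 2 probe sets gave 0.45 and 0.42. Hmgcs1, the synthase that forms HMG-CoA, gave 17.02, 17.01 and 16.995 in SOD1 and 16.87, 16.89 and 17.04 in WT on its brightest probe set, a change of 0.08 ± 0.08. Its 4 other probe sets disagreed in sign, at -0.29, -0.40, 0.43 and 0.71, and the last was at the background level on 1 WT array. Pmvk, phosphomevalonate kinase, was at 0.23 ± 0.17, Mvd, the decarboxylase, at 0.27 ± 0.34 and 0.09 ± 0.40, and Fdps, farnesyl diphosphate synthase, at 0.20 ± 0.27. Mvk, mevalonate kinase, was the exception in sign, at -0.13 ± 0.29 and -0.48 ± 0.44. None of these separated the groups. In the fit with Xist, Fdps was at 0.34, Mvk at 0.055 and -0.51, the second Mvd probe set at 0.27, and the 4 other Hmgcs1 probe sets at 0.023, 0.012, 1.14 and -0.10.

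The steps through squalene showed small values. Sqle, the monooxygenase that oxidises squalene, read 14.96, 15.08 and 14.75 in SOD1 and 14.66, 14.51 and 14.87 in WT, a change of 0.25 ± 0.15 with overlapping arrays. Fdft1, squalene synthase, was at 0.10 ± 0.12 and 0.15 ± 0.22. Lss, which closes the ring to lanosterol, was at 0.0012 ± 0.44 and 0.21 ± 0.33. Given Xist as a covariate, Sqle was at 0.08, Fdft1 at -0.048 and 0.10, and Lss at 0.09 and 0.38.

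After lanosterol, 4 of 7 genes had positive changes and 3 negative, with a median of 0.17. Cyp51, lanosterol demethylase, read 13.19, 13.32 and 13.68 in SOD1 and 12.87, 12.44 and 13.24 in WT on its brightest probe set. Only the lowest SOD1 and the highest WT array overlapped, and the change was 0.55 ± 0.24 (adjusted p = 0.330). A second Cyp51 probe set gave 0.56 ± 0.29 and the last one, of low signal, -0.53 ± 0.57. Msmo1, a methylsterol oxidase, was at 0.45 ± 0.21 (adjusted p = 0.349), with a dim second probe set at -0.83 ± 0.93. Ebp, a sterol isomerase, was at 0.36 ± 0.29, and Nsdhl, a dehydrogenase of the demethylation complex, at 0.17 ± 0.21. Sc5d, the sterol desaturase, disagreed between its probe sets. The brightest by mean (1434520_at) read 12.43, 12.98 and 13.38 in SOD1 and 13.16, 13.22 and 13.22 in WT, a change of -0.27 ± 0.25. Another (1451457_at) read 13.25, 13.37 and 13.04 in SOD1 and 12.85, 12.59 and 12.78 in WT, a change of 0.48 ± 0.20 (adjusted p = 0.304) without overlap. The fit with Xist put the first 2 Cyp51 probe sets at 0.83 and 0.88, Msmo1 at 0.19 and 0.33, Ebp at 0.59 and Nsdhl at 0.09. The Sc5d probe sets 1434520_at and 1451457_at were then at 0.17 and 0.30. The remaining tested Sc5d probe set (1424709_at) was dim, at the background level on 1 SOD1 array and 2 WT arrays. It gave 0.47 ± 0.66 without the covariate and turned in sign to -0.26 with Xist.

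Negative values were also found among these late enzymes. Dhcr7, the last reductase of one branch of the path, had the largest negative value of the synthesis genes on their brightest probe sets. It read 12.96, 12.02 and 11.49 in SOD1 and 13.07, 12.45 and 12.82 in WT, a change of -0.62 ± 0.35 (adjusted p = 0.435), and SOD1 replicate 1 lay within the WT range. The Dhcr7 change was -1.02 without SOD1 replicate 1, -0.29 without SOD1 replicate 3, and -1.28 with Xist as a covariate. Hsd17b7, a ketosteroid reductase, was negative on 4 of 4 probe sets, at -0.45 ± 0.22, -0.62 ± 0.33, -0.25 ± 0.41 and -0.09 ± 0.67. Its arrays overlapped on each of them. They were at -0.63, -0.81, -0.99 and 0.72 with Xist as a covariate.

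**Figure D2:**
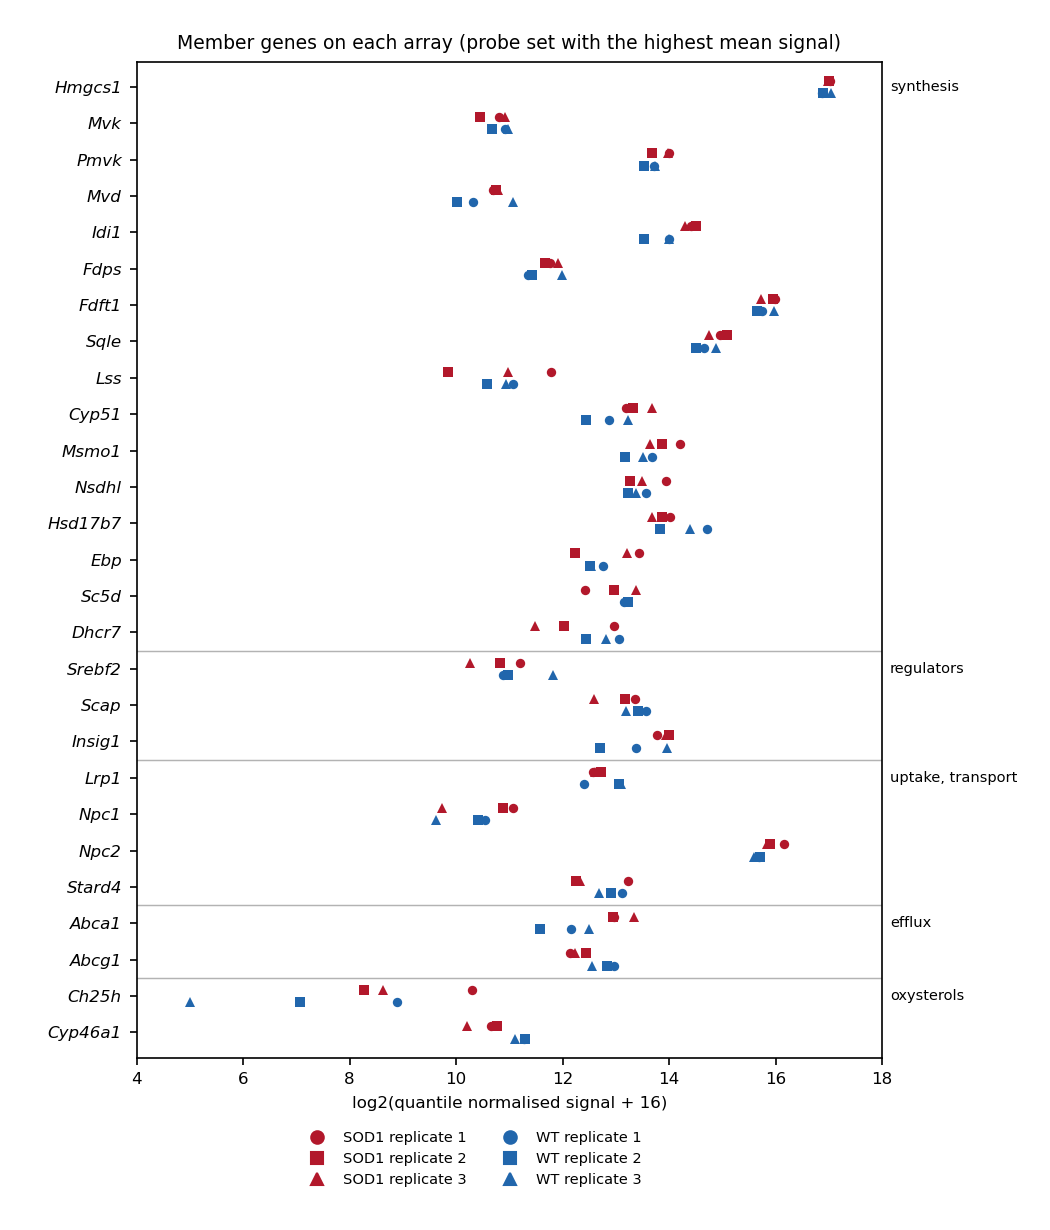
Log2 signal of the brightest probe set of each of the 27 member genes on the 6 arrays, SOD1 (red) drawn above WT (blue), with marker shape for the replicate number. Idi1, Npc2 and Abca1 have all SOD1 arrays to the right of all WT arrays, and Abcg1 and Cyp46a1 have them to the left.

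The regulators pointed in different directions. Insig1, which holds the SREBP complex in the endoplasmic reticulum and is itself a target of SREBP, read 13.78, 14.003 and 13.95 in SOD1 and 13.38, 12.70 and 13.97 in WT. WT replicate 3 reached the SOD1 level, and the change was 0.56 ± 0.27 (adjusted p = 0.377). Srebf2 read 11.20, 10.82 and 10.27 in SOD1 and 10.88, 10.97 and 11.83 in WT, a change of -0.46 ± 0.36, with -0.30 ± 0.42 on its second probe set. Scap, the escort of SREBP to the Golgi, was at -0.35 ± 0.23 (adjusted p = 0.519). With 1 array left out, Insig1 ran from 0.23 (without WT replicate 2) to 0.87 (without WT replicate 3). The brighter Srebf2 probe set ran from -0.68 (without SOD1 replicate 1) to -0.16 (without WT replicate 3) and Scap from -0.51 (without SOD1 replicate 1) to -0.13 (without SOD1 replicate 3). The fit with Xist put Insig1 at 0.61, Srebf2 at -0.91 and -0.38, and Scap at -0.79.

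Among the genes of uptake and intracellular transport, Npc2 had the smallest p. It encodes the soluble lysosomal protein that hands cholesterol to NPC1, the membrane protein through which it leaves the lysosome. One Npc2 probe set (1416901_at) read 15.07, 14.92 and 14.85 in SOD1 and 14.34, 14.38 and 14.31 in WT. These groups did not overlap, and the change was 0.61 ± 0.13, or 1.52-fold (adjusted p = 0.108, and 0.0680 to 0.363 over the alternatives). The brightest one (1448513_a_at) read 16.15, 15.90 and 15.85 in SOD1 and 15.69, 15.71 and 15.59 in WT, a change of 0.31 ± 0.11 (adjusted p = 0.253), also without overlap. With Xist as a covariate they gave 0.51 and 0.19. The remaining tested probe set was at 0.18 ± 0.31. Npc1 itself read 11.08, 10.89 and 9.74 in SOD1 and 10.54, 10.42 and 9.62 in WT, a change of 0.38 ± 0.42, and -0.45 with Xist as a covariate.

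Stard4, a soluble sterol carrier, and Lrp1, an endocytic lipoprotein receptor, depended on the probe set. The brightest Stard4 probe set (1429240_at) read 13.22, 12.25 and 12.33 in SOD1 and 13.12, 12.91 and 12.68 in WT, a change of -0.30 ± 0.28. A second (1455011_at) read 12.68, 12.62 and 12.48 in SOD1 and 11.98, 12.02 and 11.89 in WT, a change of 0.63 ± 0.22 (adjusted p = 0.223), with no overlap. The remaining one was at 0.43 ± 0.42. Lrp1 was at -0.22 ± 0.24 on its brighter probe set, with overlapping arrays. Its other probe set was dim, at the background level on 2 SOD1 arrays, and gave -1.93 ± 0.86 (adjusted p = 0.333). The Xist covariate made this value -3.45 and put the brightest Stard4 probe set at -0.58.

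The 2 efflux genes lay on opposite sides. Abca1, which loads cholesterol onto lipid-poor apolipoproteins, read 12.97, 12.96 and 13.35 in SOD1 and 12.17, 11.58 and 12.49 in WT on its 1 tested probe set (1421840_at). All SOD1 arrays lay above all WT arrays. The change was 1.01 ± 0.27, or 2.02-fold, and did not pass (adjusted p = 0.143, and 0.0949 to 0.396 over the alternatives). Abcg1, which passes cholesterol to formed lipoprotein particles, read 12.13, 12.45 and 12.23 in SOD1 and 12.97, 12.84 and 12.56 in WT on its brighter probe set (1423570_at). Here all SOD1 arrays lay below all WT arrays, with a change of -0.52 ± 0.22 (adjusted p = 0.314). The second Abcg1 probe set (1455221_at) read 8.69, 9.05 and 8.57 in SOD1 and 10.19, 10.03 and 9.93 in WT, a change of -1.28 ± 0.36, or 2.43-fold lower (adjusted p = 0.152). With Xist as a covariate Abca1 was at 1.27 and Abcg1 at -0.57 and -1.48. Over 18 alternatives Abca1 stayed between 0.77 and 1.27 and the second Abcg1 probe set between -1.48 and -1.18.

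The oxysterol genes were also opposed. Ch25h, the 25-hydroxylase known from macrophages, had the largest value of all members, reading 10.30, 8.27 and 8.63 in SOD1 and 8.89, 7.06 and 4.997 in WT. WT replicate 1 lay above 2 SOD1 arrays and 2 WT arrays were at the background level. Its change was 2.08 ± 0.91, or 4.24-fold (adjusted p = 0.327), and it ranged from 1.09 without WT replicate 3 to 3.04 without WT replicate 1. Cyp46a1, the neuronal 24-hydroxylase, read 10.67, 10.77 and 10.20 in SOD1 and 11.28, 11.30 and 11.10 in WT. All SOD1 arrays lay below all WT arrays, with a change of -0.68 ± 0.29 (adjusted p = 0.312) and -1.02 with Xist as a covariate.

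**Figure D3:**
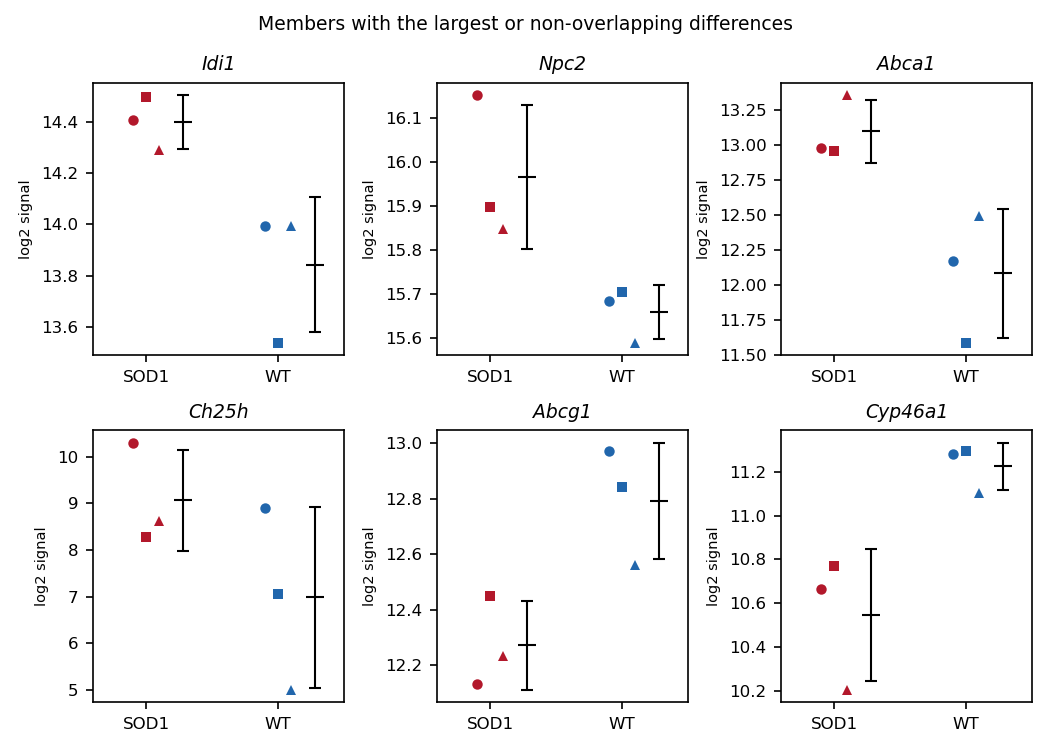
Log2 signal on each array for 6 members, SOD1 left and WT right, with the mean and SD beside the points and a separate y axis for each gene. Idi1, Npc2 and Abca1 are higher on all 3 SOD1 arrays, Abcg1 and Cyp46a1 are lower on all 3, and the Ch25h arrays overlap.

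Arrays without overlap were counted over all members. On the brightest probe sets, 3 of 27 genes, or 11.1%, had all SOD1 arrays above WT, where 10.7% of all genes tested did. For all SOD1 arrays below WT it was 2 of 27, or 7.41%, against 11.2% of all genes. Over all tested member probe sets it was 7 of 51 above, or 13.7%, against 10.5%, and 3 below, or 5.88%, against 9.81%. Of 15 member genes with several tested probe sets, 10 had 1 sign throughout, among them Idi1, Npc2 and Abcg1, and 5 had both signs, Cyp51, Hmgcs1, Msmo1, Sc5d and Stard4. The 8 probe sets below the filter, of Fdps, Fdft1, Lss, Scap, Npc2 and Abca1, were at the background level on at least 2 of the 6 arrays, and their changes are not given.

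**Figure D4:**
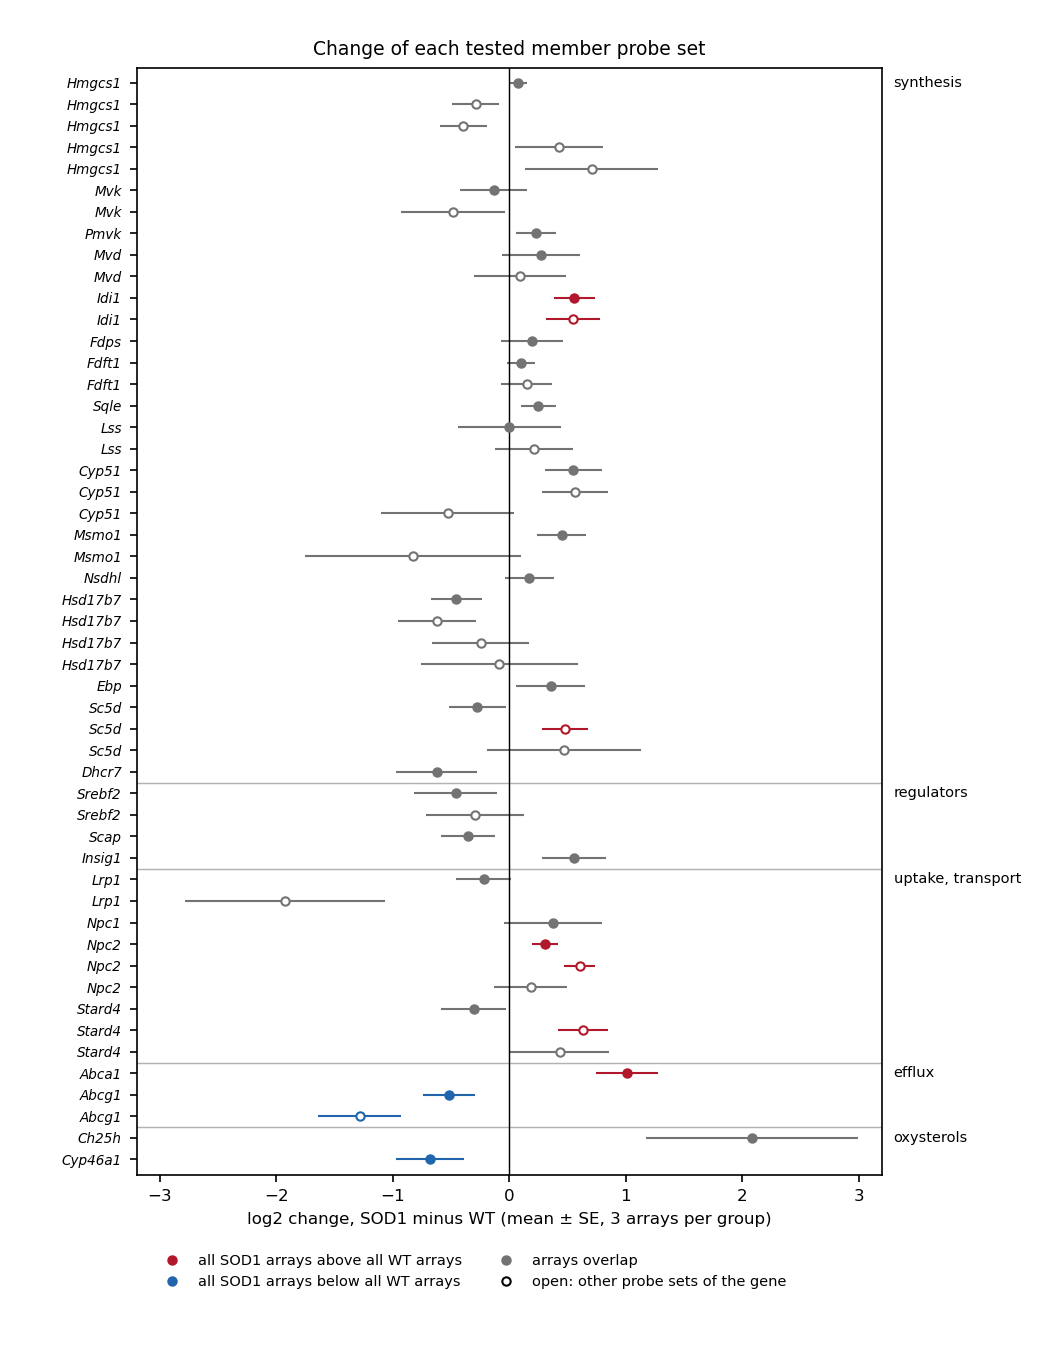
Log2 change (SOD1 minus WT, 3 arrays per group) of the 51 tested member probe sets. Bars are the SE from limma, whose variance draws on all tested probe sets. Points are filled for the brightest probe set of each gene and open for others. They are red where all SOD1 arrays lay above WT, blue where all lay below and grey where they overlapped. Abca1 at 1.01 and Abcg1 at -0.52 and -1.28 lie on opposite sides of 0, and Ch25h lies farthest from 0 at 2.08.

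Markers of other cell types also differed between the groups. Astrocyte markers had summed signals of 17.90 to 17.93 in SOD1 and 17.63 to 17.68 in WT, with 8 of 10 changes positive and 2 called higher. Oligodendrocyte markers summed to 17.02 to 17.17 in SOD1 and 16.37 to 16.68 in WT, with 7 of 8 positive and 0 called. Both cell types are known for strong cholesterol synthesis. For microglia, 9 of 15 markers were called higher. Endothelial and mural markers summed to 12.41 to 14.23 in SOD1 and 14.74 to 16.13 in WT, with 10 of 10 changes negative and 1 called lower. Meningeal fibroblast markers summed to 12.84 to 15.88 in SOD1 and 14.59 to 16.50 in WT, with 6 of 6 negative and 0 called. General neuronal markers summed to 18.56 to 18.78 in SOD1 and 18.74 to 18.92 in WT, with 5 of 7 changes negative, 1 gene wholly below WT (Rbfox3, at -1.13) and 0 called. Motor neuron markers summed to 18.87 to 19.02 in SOD1 and 19.01 to 19.16 in WT, with 6 of 10 negative, 4 genes wholly below WT, 1 wholly above and 0 called. At an unadjusted p under 0.05 in limma, 4 of 13 tested motor neuron marker probe sets were lower and 1 (Uts2) higher. Over all tested probe sets it was 7.56% and 7.1%. Of all genes tested, 11.2% lay wholly below WT and 10.7% wholly above. Every marker gene exceeded the background level on at least 1 array. On the WT arrays the brightest probe sets of Cnp, Slc1a2 and Acta2 averaged 15.54, 14.89 and 13.66, while some markers were low, such as Cd68 at 7.64. Markers of other cells were thus read on these arrays beside those of motor neurons. The part of these cells in the members' values was not tested.

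No other gene of the pathway passed the test. Of 30 further genes of sterol synthesis, SREBP processing, lipoprotein receptors and sterol export, 28 had a probe set and 55 probe sets were tested, of which 0 were called higher and 0 lower by limma. At an unadjusted p under 0.05, 3 were higher and 4 lower, or 5.45% and 7.27%, against 7.1% and 7.56% of all tested. The median change was -0.10, with 11 genes positive and 17 negative. The smallest p belonged to Pltp, phospholipid transfer protein, at -1.76 ± 0.50 (adjusted p = 0.157), from 7.59, 9.44 and 7.88 in SOD1 and 10.24, 10.03 and 9.92 in WT. Next was Abcg4, a sterol transporter related to Abcg1, which read 12.25, 12.14 and 11.31 in SOD1 and 12.83, 12.61 and 12.72 in WT, a change of -0.82 ± 0.28 (adjusted p = 0.220). On these probe sets all SOD1 arrays lay below all WT arrays. The brighter Pltp probe set was at -0.90 ± 0.45 with overlap, and a dimmer one of Abcg4 at 0.57 ± 0.36, with all SOD1 arrays above WT.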

How the data were processed

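The deposited intensity values are linear signals, 1 per probe set and array, and the labels name 2 rounds of T7-based amplification, which favours the 3' end of transcripts. How the authors computed the signal is not given in the sources used here. A 2% trimmed mean was 2500.02 on every array. Of 45101 probe sets 64 controls were left out, and of the others 34945 had 1 symbol, 932 several and 9160 none in the platform annotation. Values were quantile normalised, 16 was added, and log2 taken. Probe sets whose mean log2 signal exceeded the 40th percentile, 27022 in number, were tested in limma 3.58.1 (R 4.3.3, lmFit and trended eBayes). Tests were two-sided and Benjamini-Hochberg adjusted over these probe sets, with a threshold of 0.05. The background level, 7.22 to 7.62 (log2), was set on each array by 27 bacterial control probe sets, at their 95th percentile. The number of arrays limits the precision, since 3 against 3 cannot give an exact permutation p below 0.1. The limma step was tested on simulated data. Members and lists were chosen with earlier results of these data known, and so was the Xist term. All members are accounted for through the probe set with the highest mean signal. Array values were to be given for members past the threshold, those without overlap and the 3 largest changes each way, and those of other members were picked after their values were seen. Of other pathway genes, those with the 2 smallest p are named. Alternatives were the scaling, pseudocounts of 1 and 64, the filter, the variance trend, array weights, a replicate block, Xist, shared probe sets and each array left out. Some lists include genes with no probe set in the annotation, which were not analysed here. Figures were drawn with matplotlib 3.10.9.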

Additional observations from a re-analysis of the deposited data

How the results depend on the processing

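Across the 18 alternative fits, 0 member probe sets were called at 0.05 by limma. At a threshold of 0.1 the number was 0 in the reported fit, while 5 of 18 alternatives had an Npc2 probe set under 0.1 (values as deposited, median centring, a pseudocount of 64, the 60th percentile filter and array weights), the last 2 Abca1 as well. At an unadjusted p under 0.05 there were 6 members without a variance trend (11.8%, against 12% of all probe sets) to 17 with median centring (33.3%, against 15.9%), and 13.7% against 9.88% without WT replicate 2. The replicate numbers did not pair the arrays (correlations of deviations 0.028, -0.040 and -0.014), and with the replicate block 0 members and 76 of all probe sets were called, against 50 without it. Over all probe sets 87 were called with a pseudocount of 64, 106 with the filter at the 60th percentile, 100 with array weights, 25 with no shared probe sets, and 0 with no variance trend (3248 at an unadjusted p under 0.05). Leaving out 1 array gave 1 (WT replicate 2) to 79 (WT replicate 3), with 6 without SOD1 replicate 2, 29 without SOD1 replicate 3 and 9 without WT replicate 1. The median of the uptake, transport and efflux genes was -0.33 with Xist as a covariate and 0.31 with the mean of each gene's probe sets, against 0.04. Without 1 array it ran from -0.03 to 0.11, and the synthesis median from 0.10 to 0.26. With 1 array left out, 21 of the 27 brightest member probe sets moved by over 1.5 times or turned in sign, and Pmvk, Idi1, Npc2, Abca1, Abcg1 and Cyp46a1 did not. Over all genes the median was -0.05 for deposited values and 0.05 for median centring. The sign turned in 29 cases on 19 probe sets, none of them called, and the cause was not tested. With Xist these were Hmgcs1 (0.023, 0.012 and -0.10), Mvk (0.055), Fdft1 (-0.048), Msmo1 (0.33), Hsd17b7 (0.72), Sc5d (0.17 and -0.26) and Npc1 (-0.45). For deposited values they were Mvd (-0.015) and Lss (-0.097), with a pseudocount of 1 Lss (-0.00062), and with array weights Hsd17b7 (0.13). Without SOD1 replicate 1 they were Mvd (-0.19), Lss (-0.46), Cyp51 (0.047) and Nsdhl (-0.013), without SOD1 replicate 2 Mvk (0.0065), Msmo1 (0.37) and Hsd17b7 (0.55), and leaving out SOD1 replicate 3 Lss (-0.052) and Hsd17b7 (0.13). Without WT replicate 1 it was Fdft1 (-0.10), without WT replicate 2 Lss (-0.14 and -0.085), and without WT replicate 3 Hsd17b7 (0.34), Srebf2 (0.025) and Npc2 (-0.080). Over the arrays left out, those probe sets ranged as follows: Mvd -0.19 to 0.47, Lss -0.46 to 0.51, Cyp51 -1.13 to 0.047, Nsdhl -0.013 to 0.32, Mvk -0.23 to 0.0065, Msmo1 -1.43 to 0.37, Hsd17b7 -0.48 to 0.55, Hsd17b7 -0.54 to 0.13, Fdft1 -0.10 to 0.34, Lss -0.085 to 0.36, Srebf2 -0.53 to 0.025, Npc2 -0.080 to 0.35.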
